A study of Mus musculus with 35 samples.

Results

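Gene expression in perigonadal fat of ob/ob females given CL316243 was compared with that of ob/ob females given pioglitazone, 5 of the 35 arrays of a study of mice that differ in adiposity and insulin sensitivity. The arrays were chosen by their labels: 2 carry CL316243, which activates the beta3 adrenergic receptor, and 3 carry pioglitazone, which activates PPAR gamma, a nuclear receptor. CL316243 was given at 3 mg/kg per day and pioglitazone at 10 mg/kg per day, each for 2 weeks, so the doses differ and are those of unrelated drugs. All mice were on the C57BL/6J strain and 22 weeks old, and ob/ob mice lack functional leptin, which is true of both drug groups and of the 4 untreated ob/ob females that serve as their baseline. Lean females (4 arrays, untreated) give the level of wild-type fat. Pioglitazone was also given for the same time to Ay/+ females, which carry the yellow allele of agouti (3 arrays, 1 of them with no dose in its label, against 4 untreated), and to males made obese by diet (4 arrays against 3 untreated). None of the arrays of those other models is shared with the ob/ob females. The labels do not say whether an array holds 1 animal or a pool, nor when the last dose was given. The p-values therefore measure only the spread between samples within groups, estimated over all 35 arrays of the study. That spread may be technical.

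Beta3 adrenergic receptors of fat cells raise cyclic AMP through the stimulatory G protein, which releases fatty acids from stored triglyceride and, in brown and beige fat cells, switches on the uncoupling protein Ucp1 and mitochondrial oxidation. PPAR gamma binds DNA directly beside RXR and drives the genes of fat cell differentiation, fatty acid uptake and storage, and part of fatty acid oxidation. Both drugs are known from other work to improve insulin sensitivity in obese rodents, by different routes.

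Levels below are signals of the array scaled to a common trimmed mean of 250, and differences are in log2 of the signal plus 23, so that differences of dim probe sets are compressed. A probe set is the group of oligonucleotides that measures 1 transcript, and one is said to be called where the adjusted p of limma's moderated test over 12422 probe sets was under 0.05. With 2 and 3 arrays, precision is limited throughout. The CL316243 arrays were scanned on 1 day from 1 chip lot and the pioglitazone arrays on another day from another lot, so drug and scan day cannot be told apart, and scan day is not shared with the untreated arrays either. The ratio of the 3' to the 5' probe set of Actb, a mark of RNA or labelling quality, was 1.53 and 1.52 in the CL316243 arrays, against 0.105, 0.483 and 0.558 in the pioglitazone arrays. The same ratio for Gapdh differed less, at 0.998 and 1.11 against 0.857, 0.744 and 0.743. Correlations between arrays were 0.963 within CL316243 and 0.971 to 0.979 within pioglitazone, but 0.908 to 0.922 between the drugs. With untreated replicates 1 to 3 they were 0.914 to 0.923 for CL316243 and 0.961 to 0.977 for pioglitazone. The pioglitazone arrays shared their chip lot with untreated replicates 1 and 2, while the CL316243 arrays shared theirs with no untreated ob/ob array. The part of chip lot in the comparisons with untreated fat was not tested. Untreated replicate 4 stood apart from its group, with a correlation of 0.884 to the other arrays' mean, against 0.973 to 0.976 for replicates 1 to 3. It was scanned on another day, from another chip lot and with another wash protocol than replicates 1 to 3. The same holds for lean female replicate 4 and Ay/+ untreated replicate 1 within their groups. These arrays are among the later ones of the study, and the part of this in their values was not tested. Of all probe sets tested, 6565 (52.8%) had no overlap between the 2 and the 3 arrays, so a lack of overlap by itself says little here.

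Between the drugs 943 of 12422 probe sets were called (7.59%), 361 higher (2.91%) and 582 lower (4.69%) in CL316243 than in pioglitazone, and they stand for 788 genes. Of the gene lists, calls in fatty acid oxidation (12 of 25) and the TCA cycle (12 of 22) were all lower in CL316243, and calls among acute phase genes (8 of 22) and MHC class II genes (5 of 14) were all higher. Ucp1 and Cidea were lower, though 13 of 17 brown fat genes were not called. Against the untreated ob/ob females 464 probe sets were called in CL316243 (3.74%, 193 higher, 1.55%, and 271 lower, 2.18%) and 132 in pioglitazone (1.06%, 91 higher, 0.733%, and 41 lower, 0.33%). In bulk tissue fewer cells of a type and less RNA per cell cannot be told apart. Both of these comparisons share the untreated arrays. With quantile normalization 171 probe sets were higher and 143 lower in CL316243 than in untreated fat, so the split of that comparison depends on the scaling. Leaving out CL316243 replicate 1 or 2 gave 277 and 276 calls between the drugs, leaving out pioglitazone replicate 1, 2 or 3 gave 542, 654 and 581, and scan day as a random block gave 390. The calls of CL316243 against untreated fat were 4 and 14 without CL316243 replicate 1 or 2, 165, 146 and 209 without untreated replicate 1, 2 or 3, and 1261 without untreated replicate 4. Those of pioglitazone against untreated fat were 87, 56 and 44 without pioglitazone replicate 1, 2 or 3, so single genes called against untreated fat below rest on few arrays.

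**Figure D1:**
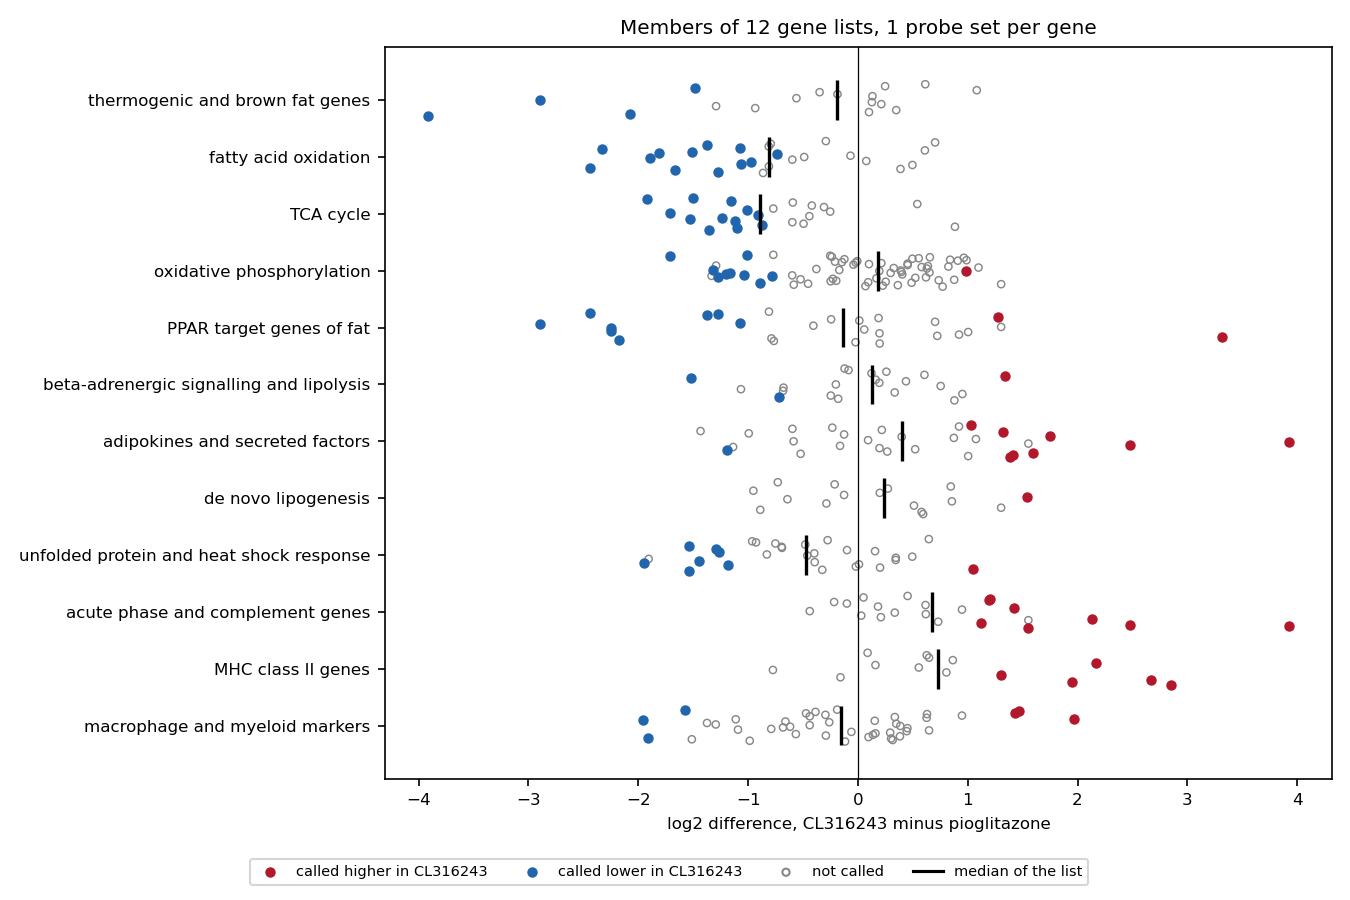
Log2 difference of CL316243 minus pioglitazone (x axis) for the measured members of 12 gene lists, 1 point per gene, with filled points for called genes and a bar at each list's median. The called members of fatty acid oxidation and the TCA cycle all lie on the left, and those of the acute phase and MHC class II lists all on the right.

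Ucp1, the uncoupling protein that lets brown fat mitochondria make heat, had signals of 60.5 and 62.1 in the CL316243 arrays, against 1015, 1553 and 1233 in the pioglitazone arrays. Untreated ob/ob females had 11.9, 38.8, 4.72 and 9.14 and lean females 176, 797, 1251 and 1197. The CL316243 arrays thus lay above every untreated array but below every pioglitazone and every lean array. Ucp1 was 15.1-fold lower in CL316243 than in pioglitazone (log2 -3.92 ± 0.67 SE, adjusted p = 0.000326). Against untreated fat the difference was log2 1.18 in CL316243 (adjusted p = 0.322) and 5.09 in pioglitazone (adjusted p = 5.11e-07). A second, dimmer Ucp1 probe set had the same sign and was not called (log2 -0.79, adjusted p = 0.422). Cidea, a lipid droplet protein abundant in brown fat, had 200.3 and 165 in CL316243, against 606, 826 and 1178 in pioglitazone and 26.8, 48.4, 55.3 and 26.4 in untreated arrays, with no overlap between any of the 3 groups. It was lower in CL316243 than in pioglitazone (log2 -2.07 ± 0.46 SE, adjusted p = 0.00401) and was called higher than in untreated fat under both drugs, by log2 1.75 in CL316243 (adjusted p = 0.0227) and 3.82 in pioglitazone (adjusted p = 2.15e-07). Without CL316243 replicate 2 the difference between the drugs in Cidea missed the threshold (adjusted p = 0.0738).

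Fabp3, the heart-type fatty acid binding protein that brown fat also makes, had 18.9 and 32.0 in CL316243, against 348, 363 and 296 in pioglitazone, log2 -2.90 ± 0.47 SE, adjusted p = 0.000217. Its CL316243 signals overlapped with those of the untreated arrays, 20.3, 36.5, 21.9 and 43.2. Ppara, the PPAR of oxidative tissues, had 66.0 and 31.1 in CL316243, against 133, 134 and 274 in pioglitazone (log2 -1.48 ± 0.45 SE, adjusted p = 0.0356), a call that was lost without either CL316243 array, or without pioglitazone replicate 1 or 3 (adjusted p = 0.0817, 0.330, 0.0515 and 0.172). These 4 genes were the called members of the 17 measured thermogenic and brown fat genes, none was called higher, 8 of 17 differences lay above 0, and the list's median was -0.19 beside 0.07 over all probe sets. Elovl3, a fatty acid elongase of brown fat, had 18.4 and 10.8 in CL316243, against 53.5, 40.3 and 52.5 in pioglitazone, and missed the threshold (adjusted p = 0.167). Dio2, which activates thyroid hormone in brown fat, had 67.7 and 41.4 against 57.1, 30.6 and 61.2, and Ppargc1a, a coactivator of mitochondrial biogenesis, 23.4 and 29.2 against 5.66, 12.6 and 33.6. Both genes were dim, their arrays overlapped between the drugs, and neither was called (adjusted p = 0.930 and 0.598). With CL316243, 2 of the 17 genes were called higher than in untreated fat, and with pioglitazone 5.

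**Figure D2:**
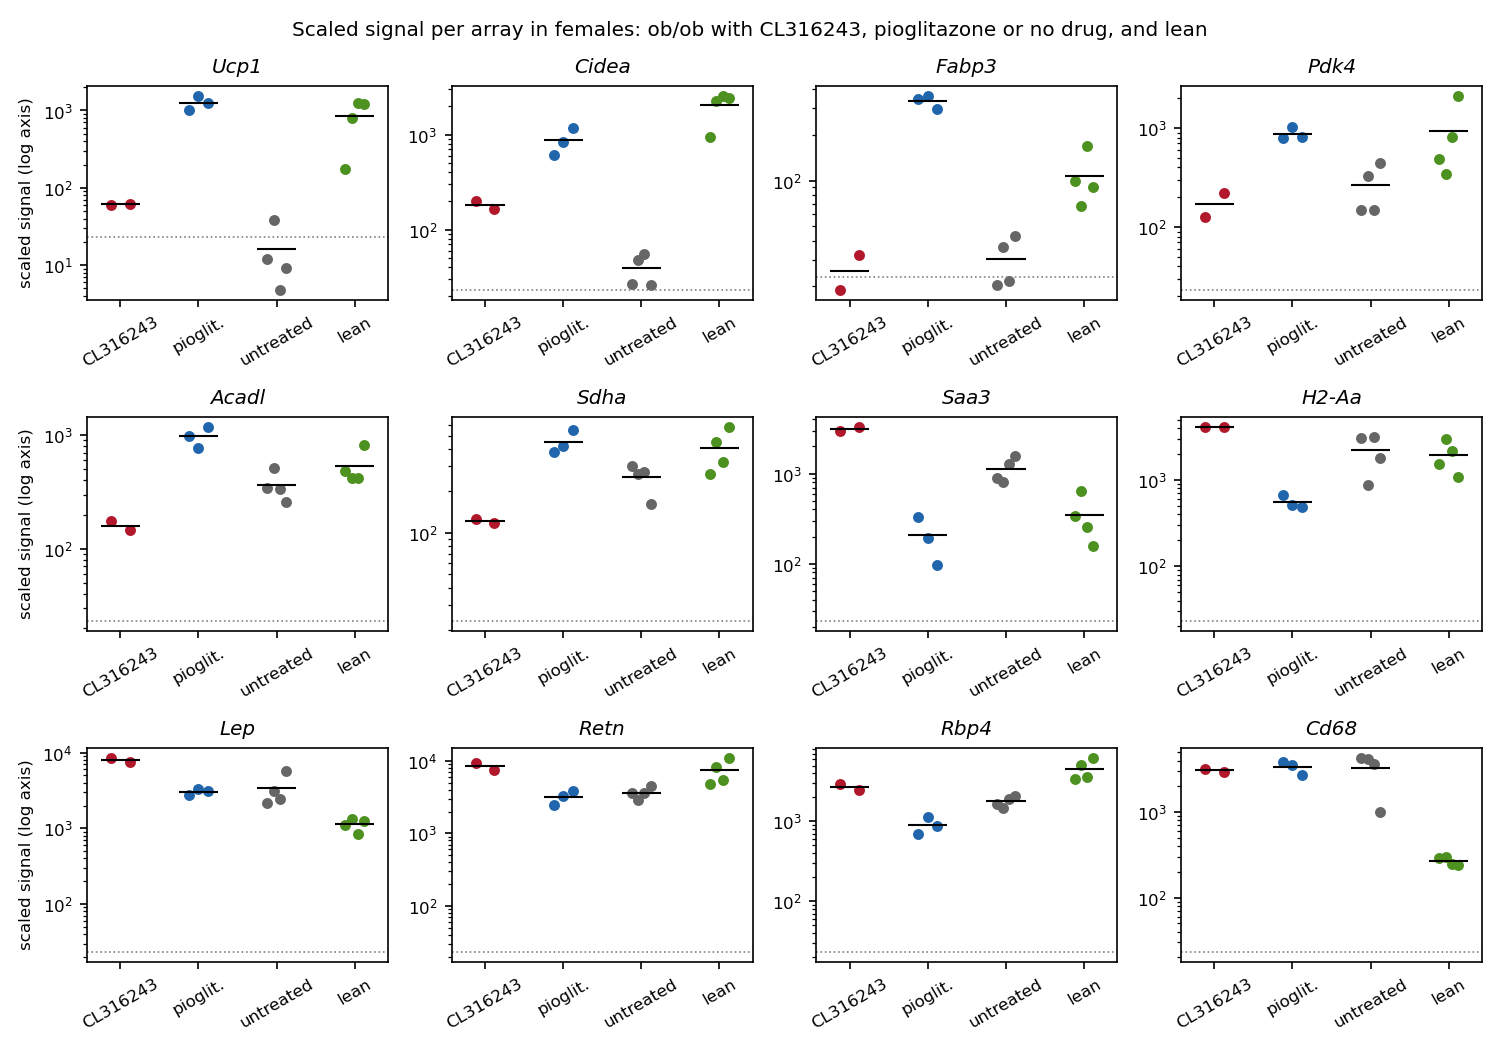
Scaled signal per array (log axis) of 12 genes in females, for ob/ob mice with CL316243 (2 arrays), pioglitazone (3) or no drug (4) and for lean mice (4), with bars at the group means and a dotted line at the pseudocount of 23. Ucp1 is near 61 in both CL316243 arrays and above 1000 in the 3 pioglitazone arrays, Saa3 and H2-Aa show the opposite order, and the 2 drug groups overlap in Cd68.

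Fatty acid oxidation genes were lower in CL316243 than in pioglitazone: 12 of 25 measured members were called lower and none higher, with a median of -0.81. Acadl, the long-chain acyl-CoA dehydrogenase that starts a round of beta oxidation, had 175 and 145 in CL316243, against 986, 773 and 1187 in pioglitazone and 341, 517, 337 and 259.8 in untreated fat. The 3 groups did not overlap, and Acadl was 5.43-fold lower in CL316243 than in pioglitazone (log2 -2.44 ± 0.32 SE, adjusted p = 5.49e-06). It was below untreated fat in CL316243 (log2 -1.04, adjusted p = 0.0445) and above it in pioglitazone (log2 1.40, adjusted p = 0.00270). Etfdh, which passes electrons from acyl-CoA dehydrogenases to ubiquinone, had 155 and 135 in CL316243, against 707, 794 and 975 in pioglitazone (log2 -2.33 ± 0.40 SE, adjusted p = 0.000335). Acaa1b, a peroxisomal thiolase, was at log2 -1.89 (adjusted p = 6.54e-05), with 594 and 542 against 1958, 2272 and 2294, and its second probe set was at -2.57 (adjusted p = 0.00840), a call lost without CL316243 replicate 1 or 2 (0.0763 and 0.0927). Decr1, which handles unsaturated fatty acids, had 276 and 276 in CL316243, against 955, 1069 and 1065 in pioglitazone (log2 -1.81 ± 0.33 SE, adjusted p = 0.000697). The count of 12 fell to 7 without CL316243 replicate 1 and to 6 without replicate 2.

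The TCA cycle and the pyruvate dehydrogenase complex, which burn acetyl-CoA in mitochondria, showed the same order: 12 of 22 measured genes were called lower in CL316243 and none higher, with a median of -0.89. Pdhb, a subunit of pyruvate dehydrogenase, had 818 and 743 in CL316243, against 2533, 2883 and 3755 in pioglitazone (log2 -1.92 ± 0.39 SE, adjusted p = 0.00158). Sdha, the catalytic subunit of succinate dehydrogenase, had 124 and 117, against 382, 421 and 552 in pioglitazone and 302, 266, 273 and 159.6 in untreated fat (log2 -1.71 ± 0.36 SE, adjusted p = 0.00232 between the drugs). Both CL316243 signals of Sdha lay below every other array of the 3 groups. Dld, shared by the pyruvate and oxoglutarate dehydrogenases, differed by log2 -1.53 (adjusted p = 0.00232), and Dlat, the acetyltransferase of the pyruvate complex, by -1.50 (adjusted p = 0.000463). A dimmer Dlat probe set was not called (log2 0.56, adjusted p = 0.529). The count of 12 was 6 without CL316243 replicate 1 and 7 without replicate 2, and Dld lost its call without replicate 1 (adjusted p = 0.0503).

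Set against the untreated ob/ob females, all 24 called genes of these lists had an interval above 0 with pioglitazone, with differences of 0.43 to 1.40, and 14 of them were called. With CL316243 the differences ran from -1.11 to 0.16, 23 of 24 were below 0, 18 of the 95% intervals held 0 and 6 lay below it, and 2 genes were called. These 24 were picked for being lower in CL316243 than in pioglitazone, which favours low CL316243 values and high pioglitazone values. Over all 47 measured genes of both lists, the CL316243 interval lay above untreated fat in 5 (Acads, Eci1, Etfb, Pex11a and Idh3b), below it in 8 and held 0 in 34, and the pioglitazone interval lay above it in 35 and below it in none. Acads is uncertain, as another of its probe sets was called lower in CL316243 than in pioglitazone (log2 -1.35, adjusted p = 0.04997). Eci1, an enoyl-CoA isomerase, and Etfb, an electron transfer flavoprotein subunit, were called higher than untreated with CL316243 (log2 0.87, adjusted p = 0.0351, and 1.06, 0.0410), beside Acadl and Etfa called lower. As the untreated arrays enter both, these are values side by side and not independent results.

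**Figure D3:**
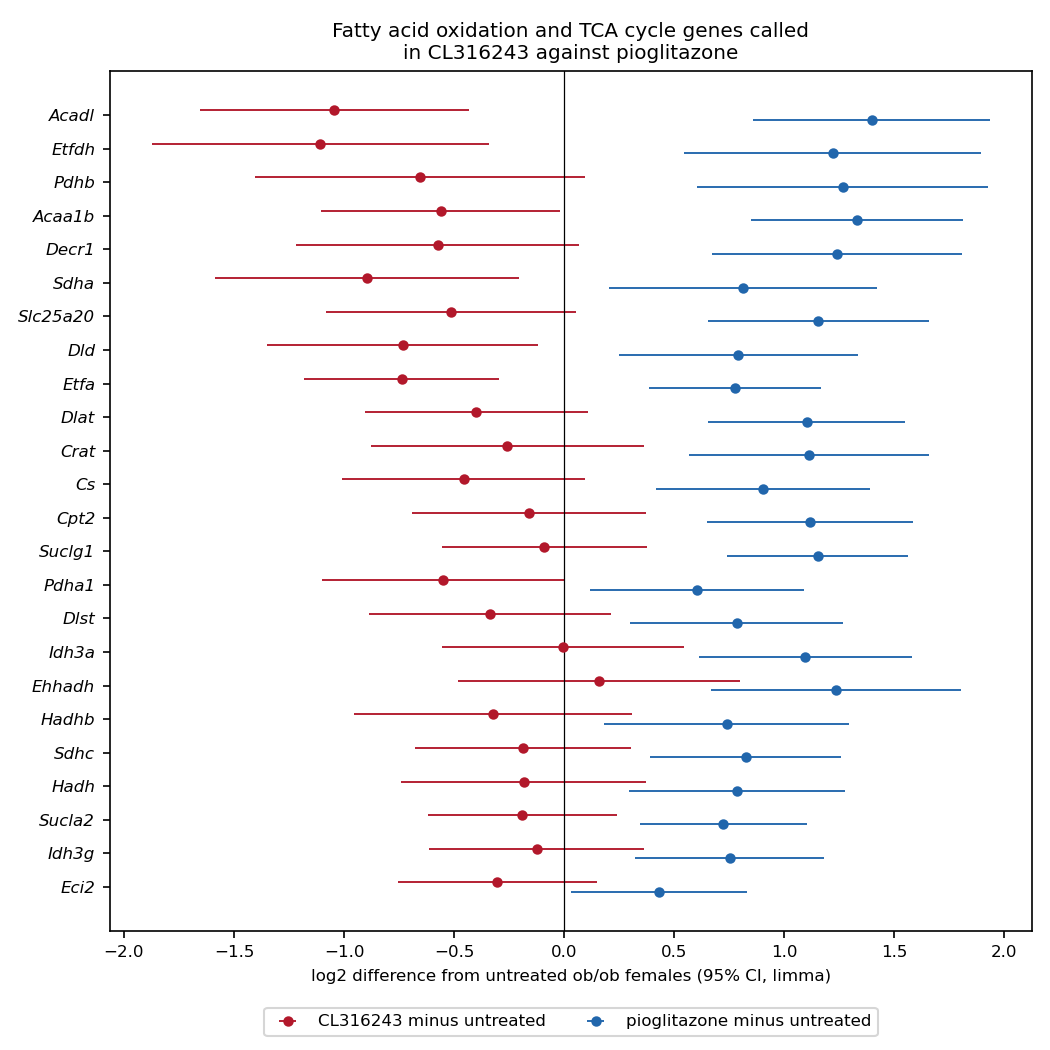
Log2 difference from untreated ob/ob females (x axis, with 95% confidence intervals from the fit) of the 24 fatty acid oxidation and TCA cycle genes called between the drugs, for CL316243 and for pioglitazone. All 24 pioglitazone intervals lie above 0, and 18 of the CL316243 intervals hold 0. Picking genes this way favours low CL316243 and high pioglitazone values.

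The respiratory chain was less one-sided. Of 66 measured oxidative phosphorylation genes 9 were called lower in CL316243 and 1 higher, and the median was 0.18, on the other side of 0 from the called members. Cycs, cytochrome c, had 193 and 276 in CL316243, against 542, 567 and 741 in pioglitazone (log2 -1.32 ± 0.26 SE, adjusted p = 0.00127), and Ndufs1, a subunit of complex I, 507 and 433 against 965, 1136 and 1448 (log2 -1.28 ± 0.28 SE, adjusted p = 0.00311). Ndufab1, the mitochondrial acyl carrier protein, was at log2 -1.20 (adjusted p = 0.0116). Relative to untreated fat, 8 of the 66 were called higher with CL316243 and 13 with pioglitazone, and none was called lower with either drug. Without CL316243 replicate 1 and replicate 2 the count of 9 was 3 and 2, Cycs missed the threshold without replicate 1 (adjusted p = 0.0759), and Ndufs1 without replicate 2 (adjusted p = 0.0738). Ndufab1 missed it without either (adjusted p = 0.0763 and 0.136).

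Promoters were searched for TGACGTCA, the palindromic cyclic AMP response element, and for TTGCGCAA, a palindromic C/EBP site, since Cebpb lay lower in CL316243. Each reads the same on both strands, and the windows span 250 bases before to 50 after the start of a gene in RefSeq (build GRCm38.p6). TGACGTCA stood in 12 of 226 promoters of genes called higher (5.31%), in 15 of 411 of those called lower (3.65%), in 208 of 6576 genes of the array (3.16%) and in 549 of 27025 promoters in all (2.03%). TTGCGCAA stood in 1 of 226, in 2 of 411, in 26 of 6576 (0.395%) and in 56 of 27025 (0.207%). Cycs from the lower genes, H2-Aa from the higher genes and Lep are printed as examples from both sides, with the matched letters in capitals, 161, 66 and 47 bases before the start at their near end.
Cycs, chr6:50566520-50566819, minus strand: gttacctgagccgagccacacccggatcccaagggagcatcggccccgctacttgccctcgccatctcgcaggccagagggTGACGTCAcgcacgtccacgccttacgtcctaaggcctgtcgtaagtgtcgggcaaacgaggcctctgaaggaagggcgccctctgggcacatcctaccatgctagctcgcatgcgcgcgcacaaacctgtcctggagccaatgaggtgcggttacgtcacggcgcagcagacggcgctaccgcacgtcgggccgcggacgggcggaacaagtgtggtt
H2-Aa, chr17:34287774-34288073, minus strand: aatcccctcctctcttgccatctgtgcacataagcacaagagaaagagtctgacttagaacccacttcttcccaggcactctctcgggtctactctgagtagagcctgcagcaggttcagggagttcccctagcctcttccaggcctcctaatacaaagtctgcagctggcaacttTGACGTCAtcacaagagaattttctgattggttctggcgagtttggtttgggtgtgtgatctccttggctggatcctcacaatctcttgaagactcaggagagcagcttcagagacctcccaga
Lep, chr6:29059971-29060270, plus strand: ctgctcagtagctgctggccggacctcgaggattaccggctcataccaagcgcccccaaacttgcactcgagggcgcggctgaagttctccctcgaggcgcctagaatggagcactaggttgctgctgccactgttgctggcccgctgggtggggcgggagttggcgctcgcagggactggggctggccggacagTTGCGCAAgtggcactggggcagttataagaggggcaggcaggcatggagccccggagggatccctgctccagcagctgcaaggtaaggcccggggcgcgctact
The matches are a description of these letters and were not tested as binding sites.

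PPAR target genes of fat, the class that pioglitazone acts on, were split: 8 of 26 measured were called lower in CL316243 and 2 higher, 16 were not called, 12 lay above 0, and the median was -0.13. The count of 8 was 5 without CL316243 replicate 1 and 5 without replicate 2. Pdk4, the kinase that switches pyruvate dehydrogenase off, had 125 and 218 in CL316243, against 799.7, 1016 and 817 in pioglitazone (log2 -2.24 ± 0.48 SE, adjusted p = 0.00280), and missed the threshold without CL316243 replicate 1 (adjusted p = 0.102). Its CL316243 signals overlapped with the untreated ones, 149, 327, 149 and 439.8. Aqp7, the glycerol channel of fat cells, had 259 and 221 in CL316243, against 989.5, 1378 and 1149 in pioglitazone (log2 -2.18 ± 0.33 SE, adjusted p = 7.70e-05). Outside that list Ephx2, the soluble epoxide hydrolase, was 9.77-fold lower, with 228 and 188 against 2392, 1892 and 2439.5 (log2 -3.29 ± 0.39 SE, adjusted p = 1.69e-06). The PPAR targets called higher were Dbi, an acyl-CoA binding protein, at log2 1.28, and Plin2, a protein that coats lipid droplets, with 12712 and 12498 in CL316243, against 1233, 1454 and 1086 in pioglitazone (log2 3.31 ± 0.61 SE, adjusted p = 0.000707). Untreated arrays had 1405, 884, 1069 and 5092, so both CL316243 arrays lay above all 7 others, and pioglitazone was not called against untreated fat (log2 -0.37, adjusted p = 0.999). Pparg itself overlapped between the drugs, with 452 and 409 against 342, 299 and 495, a difference of log2 0.20 with a 95% interval of -0.39 to 0.80 (adjusted p = 0.748).

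Genes of beta-adrenergic signalling and lipolysis, the pathway that CL316243 enters, were little separated: of 21 measured, 1 was called higher and 2 lower, with a median of 0.12. G0s2, an inhibitor of the lipase Pnpla2, had 3823 and 2956 in CL316243, against 1156, 1363 and 1436 in pioglitazone (log2 1.34 ± 0.35 SE, adjusted p = 0.0149), and was above untreated fat in CL316243 by log2 1.38 (adjusted p = 0.0192). Abhd5, the coactivator of the same lipase, went the other way, with 518 and 520.4 against 1217, 1456 and 2019 (log2 -1.52 ± 0.32 SE, adjusted p = 0.00280). Adcy6, an adenylyl cyclase that makes cyclic AMP, had 363 and 534 against 583, 745 and 932 and lay just inside the threshold (log2 -0.72 ± 0.23 SE, adjusted p = 0.0479). Lipe, hormone-sensitive lipase, overlapped between the drugs, with 4408 and 3856 against 2621, 4036 and 4404 (adjusted p = 0.748). Leaving out CL316243 replicate 1 or 2 ended the calls of G0s2 (adjusted p = 0.197 and 0.0654) and Adcy6 (0.478 and 0.0600), but not that of Abhd5 (0.0462 and 0.0451). Leaving out pioglitazone replicate 1 also ended the call of G0s2 (adjusted p = 0.0605), and leaving out replicate 2 or 3 that of Adcy6 (0.103 and 0.207).

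The inhibitory G protein alpha subunits, which restrain adenylyl cyclase, went in opposite directions. Gnai1 was among the 15 lowest genes. One probe set had 61.8 and 10.1 in CL316243, against 427, 603 and 646 in pioglitazone and 244, 270.0, 176 and 49.3 in untreated fat (log2 -3.44 ± 0.49 SE, adjusted p = 2.61e-05 between the drugs). A brighter probe set had 271 and 338 against 1386, 2033 and 1879.7 in pioglitazone (log2 -2.44 ± 0.38 SE, adjusted p = 0.000127). Both Gnai1 probe sets had every CL316243 array below every pioglitazone array. Gnai2, named here after its values were seen, was called higher on 3 probe sets, at log2 2.06, 1.37 and 1.47 (adjusted p = 0.000541, 0.000463 and 0.0239). No probe set with that symbol alone was matched here to Adrb3 or Adrb1, the beta receptors.

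Of 28 immediate early and cyclic AMP response genes 1 was called higher and 1 lower, 7.14% beside the 7.59% of all probe sets. Btg2, an early growth-arrest gene, had 1307 and 1732 in CL316243, against 591, 804 and 801 in pioglitazone (log2 1.03 ± 0.26 SE, adjusted p = 0.0111). Cebpb, a transcription factor of early fat cell differentiation, had 516 and 626 against 1612, 1225 and 1326 (log2 -1.24 ± 0.35 SE, adjusted p = 0.0240). Neither pair of groups overlapped, Btg2 lost its call without CL316243 replicate 2 or pioglitazone replicate 1 (adjusted p = 0.197 and 0.0686), and Cebpb without CL316243 replicate 1 or 2 or pioglitazone replicate 1 or 3 (adjusted p = 0.220, 0.0999, 0.0961 and 0.0545).

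Triglyceride synthesis genes were called lower in 4 of 15 measured (Agpat3, Dgat1, and Pdk4 and Aqp7, which the PPAR targets also hold) and higher in 1. Dgat1, which adds the last acyl chain, had 1001 and 911 in CL316243, against 1922, 2477 and 2912 in pioglitazone (log2 -1.31, adjusted p = 0.0354), with a dim second probe set that was not called. Mogat2, an acyltransferase best known from the gut, was the higher one, with 82.8 and 142 in CL316243 against 8.25, 10.3 and 9.52 (log2 2.03 ± 0.52 SE, adjusted p = 0.0117). Among 16 de novo lipogenesis genes Thrsp, a lipogenic regulator induced by thyroid hormone and carbohydrate, was called, with 5991 and 5256 against 1244, 2013 and 2801 (log2 1.54 ± 0.43 SE, adjusted p = 0.0227), though not with quantile normalization (adjusted p = 0.0765). Fasn, fatty acid synthase, had 4704 and 3677 against 1963, 2562 and 4121 and overlapped (adjusted p = 0.205). Scd1, the stearoyl-CoA desaturase, had 9523 and 9238 against 3461, 4988 and 3139.7 on the probe set named by the rule (log2 1.30, adjusted p = 0.212) and was called on another (log2 1.49, adjusted p = 0.0158). Dgat1, Mogat2 and Thrsp each lost their call without CL316243 replicate 1 (adjusted p = 0.168, 0.0507 and 0.186) and without replicate 2 (0.210, 0.175 and 0.114). Without 1 pioglitazone array Dgat1 lost it at replicate 2 and 3 (adjusted p = 0.0829 and 0.124) and Thrsp at replicate 1 (adjusted p = 0.135).

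Some secreted products of fat cells were higher in CL316243 than in pioglitazone. Of 29 measured adipokines and secreted factors 8 were called higher, 1 lower and 20 not, with a median of 0.40, beside 2.91% of all probe sets called higher. With quantile normalization the count of 8 was 5. Lcn2, given below with the acute phase genes, is also in this list. Rbp4, the retinol carrier, had 2953 and 2487 in CL316243, against 691, 1132 and 877 in pioglitazone and 1656, 1484, 1914 and 2092 in untreated arrays. The 3 groups did not overlap, and the difference between the drugs was log2 1.59 ± 0.25 SE, adjusted p = 0.000127. Its drop with pioglitazone was called (log2 -0.99, adjusted p = 0.0102), while CL316243 against untreated fat was not (log2 0.61, adjusted p = 0.155). Lep, whose messenger ob/ob fat still makes, had 8566 and 7429 in CL316243, against 2741, 3302 and 3119 in pioglitazone (log2 1.38 ± 0.37 SE, adjusted p = 0.0157), and its second probe set had the same direction (log2 1.51, adjusted p = 0.00909). Retn, resistin, had 9428 and 7436 against 2434, 3323 and 3795 (log2 1.41 ± 0.36 SE, adjusted p = 0.0128). Lep and Retn were each above untreated fat in CL316243 (log2 1.35, adjusted p = 0.0266, and 1.21, 0.0440). Cck, the gut and brain peptide cholecystokinin, had 265 and 490.1 against 81.6, 109.6 and 84.2 (log2 1.75 ± 0.53 SE, adjusted p = 0.0365).

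These adipokine calls depended on scaling and on single arrays. With quantile normalization Lep was at log2 0.68 (adjusted p = 0.166), Retn at 0.70 (0.167) and Car3, a carbonic anhydrase abundant in fat, at 0.40 (0.414), against 1.38, 1.41 and 1.53 with scaling, while Rbp4 was called under both. Adipoq, adiponectin, had 13945 and 11545 in CL316243 against 5599.6, 6277 and 7165 in pioglitazone, was not called (log2 1.00, adjusted p = 0.119), and turned to -0.24 with quantile normalization. Without CL316243 replicate 1 or 2 the adipokine count of 8 was 2 and 3, and Lep (adjusted p = 0.166 and 0.0891), Retn (0.175 and 0.0645), Cck (0.0848 and 0.329) and Car3 (0.270 and 0.174) missed the threshold. They also missed it without pioglitazone replicate 1 (adjusted p = 0.0590, 0.0720, 0.103 and 0.144). Cck and Car3 missed it without pioglitazone replicate 2 (0.0593 and 0.0685) or replicate 3 (0.0948 and 0.109) too.

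Markers of fat cells themselves were thus mixed. Of 19 measured, 5 were called higher (Lep, Retn, Car3, Thrsp and Rbp4) and 2 lower (Aqp7 and Adig), and their summed signal was 72068 to 83767 in the CL316243 arrays against 39819 to 49845 in the pioglitazone arrays. A sum follows its brightest genes, and the mean log2 signal of the list overlapped, at 10.779 to 11.025 against 10.468 to 10.847. With quantile normalization 1 member was called higher and 2 lower. Adig, a small adipocyte membrane protein, had 695 and 469 in CL316243 against 1835, 2169 and 2449.6 in pioglitazone (log2 -1.86 ± 0.41 SE, adjusted p = 0.00341), and missed the threshold without CL316243 replicate 2 (adjusted p = 0.0981). Fabp4, the fat cell fatty acid binding protein, had 355 and 371 against 320.2, 247 and 388, with overlap (adjusted p = 0.863). Lpl, lipoprotein lipase, had 7084 and 6026 against 4707, 3870.4 and 2234 (log2 0.92, adjusted p = 0.127), and a dimmer probe set was called (log2 1.54, adjusted p = 0.00541). Slc2a4, the insulin-regulated glucose transporter, had 359 and 290.4 against 417, 692 and 968 (log2 -0.97, adjusted p = 0.0756), Pck1, the glyceroneogenic enzyme, 440.1 and 276 against 497, 591 and 769 (adjusted p = 0.151), and Agt, angiotensinogen, 321 and 234 against 242, 537 and 501 (adjusted p = 0.662).

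Acute phase and complement genes were higher in CL316243, with 8 of 22 measured called higher, none lower and a median of 0.67. Saa3, serum amyloid A of fat cells and macrophages, had 2982 and 3313 in CL316243, against 328, 194 and 95.9 in pioglitazone and 892, 815, 1295 and 1549 in untreated arrays. No array of 1 group overlapped with another, and Saa3 was 15.2-fold higher in CL316243 than in pioglitazone (log2 3.92 ± 0.49 SE, adjusted p = 4.09e-06). Its fall with pioglitazone was called (log2 -2.43, adjusted p = 0.000699), and CL316243 against untreated fat was not (log2 1.50, adjusted p = 0.0654). Serpina3n, a serine protease inhibitor, had 5959 and 5542 in CL316243, against 1294, 1256 and 1326 in pioglitazone (log2 2.13 ± 0.26 SE, adjusted p = 2.11e-06), and 5055, 4571, 4308 and 3167 in untreated fat. Wfdc21, a WAP-domain secreted protein, had 3140.0 and 2608, against 265, 121 and 138 in pioglitazone (log2 3.94 ± 0.39 SE, adjusted p = 1.61e-07). S100a8, a calcium-binding protein of neutrophils and monocytes, had 1184 and 1387, against 163, 239.8 and 183 (log2 2.60 ± 0.29 SE, adjusted p = 9.04e-07), as the 1 called member of 21 neutrophil and mast cell markers.

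Lcn2, lipocalin 2, took a different place among the groups: 213 and 314 in CL316243, 35.4, 27.5 and 21.3 in pioglitazone and 687, 588, 882 and 219 in untreated fat. It was higher in CL316243 than in pioglitazone (log2 2.47 ± 0.70 SE, adjusted p = 0.0239) and lower with pioglitazone than untreated (log2 -3.45, adjusted p = 0.000699), while a dim second probe set was not called (log2 0.02). Saa2, another serum amyloid, had 255 and 303 against 125, 79.7 and 48.4 in pioglitazone (log2 1.55 ± 0.45 SE, adjusted p = 0.0301). Without 1 CL316243 array the count of acute phase genes was 4 (replicate 1) and 5 (replicate 2), Lcn2 and Saa2 among those lost, with adjusted p of 0.111 and 0.204 for Lcn2 and 0.142 and 0.208 for Saa2. Without pioglitazone replicate 1, 2 or 3 Lcn2 had adjusted p of 0.0506, 0.0576 and 0.0716, and Saa2 0.0274, 0.0685 and 0.137.

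MHC class II genes, which present antigen to CD4 T cells, were higher in CL316243 in 5 of 14 measured members, with none lower and a median of 0.73. H2-Aa, the alpha chain of I-A, had 4148 and 4171 in CL316243, against 679, 514 and 494 in pioglitazone (log2 2.85 ± 0.37 SE, adjusted p = 5.49e-06), and its promoter is printed above. The untreated arrays spread widely, at 3066, 872, 3136 and 1788, below both CL316243 arrays and above all pioglitazone arrays. H2-Aa was called lower with pioglitazone than untreated (log2 -1.78, adjusted p = 0.000803) and not called with CL316243 (log2 1.07, adjusted p = 0.0789). H2-Eb1, the beta chain of I-E, had 2687 and 2507 against 359, 364 and 446 in pioglitazone (log2 2.67 ± 0.42 SE, adjusted p = 0.000121), and Cd74, the invariant chain, 7501 and 6725 against 2058, 1388 and 1340.2 (log2 2.17 ± 0.35 SE, adjusted p = 0.000198). H2-Ab1, the beta chain of I-A, had 1043 and 1150.1 against 263, 303 and 237 (log2 1.95 ± 0.46 SE, adjusted p = 0.00732) and missed the threshold without CL316243 replicate 1 or 2 (adjusted p = 0.0670 and 0.0896). The fifth was H2-DMa, which loads peptide, at log2 1.30 (adjusted p = 0.00110).

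Chemokines and interferon-response genes were fewer. Of 37 cytokines and chemokines 3 were called higher, Ccl5, Ccl7 and Ccl8, and 1 lower, Il1rn. Ccl5, a T cell chemoattractant, had 482 and 561 in CL316243, against 65.2, 96.4 and 84.9 in pioglitazone (log2 2.38 ± 0.47 SE, adjusted p = 0.00125), and Ccl8, a monocyte chemoattractant, 2945 and 3541 against 744, 629 and 549.6 (log2 2.30 ± 0.41 SE, adjusted p = 0.000479). Ccl7 had 414 and 456 against 235, 141 and 114 (adjusted p = 0.0445), and not below 0.05 without CL316243 replicate 1 or 2 (0.188 and 0.231) or pioglitazone replicate 2 or 3 (0.113 and 0.158). Of 26 interferon-response genes 4 were higher and none lower, with Isg15, a ubiquitin-like protein, at 312 and 473 against 114, 161 and 101 (log2 1.48 ± 0.28 SE, adjusted p = 0.000757), and Psmb8, Irf8 and Tap2 at log2 0.91, 0.96 and 0.87. The interferon count was 1 without CL316243 replicate 1 and 0 without replicate 2.

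Macrophage and myeloid markers did not follow the acute phase genes. Of 44 measured, 3 were called higher and 3 lower, their median was -0.15, and their summed signal was 53311 to 58729 in the CL316243 arrays against 40089 to 63693 in the pioglitazone arrays, which overlap. Cd68, the macrophage lysosomal marker, had 3228 and 2946 in CL316243, against 3848, 3551 and 2741 in pioglitazone (log2 -0.12, 95% interval -0.84 to 0.61), while lean females had 288, 302, 245 and 239. Mmp12, the macrophage elastase, overlapped as well, with 3674 and 3635 against 2758, 3899 and 2035 (adjusted p = 0.780). The higher genes were Ccr2, the receptor of monocyte chemoattractants, with 373 and 399 against 160.0, 53.2 and 59.1 (log2 1.97 ± 0.36 SE, adjusted p = 0.000707), and Cd52 and Aif1. The lower genes were Itgb2, the beta2 integrin of leukocytes, with 259.5 and 265 against 2423, 833 and 561 (log2 -1.91 ± 0.53 SE, adjusted p = 0.0212), Il1rn, the interleukin 1 receptor antagonist, with 171 and 189 against 1089, 859 and 477 (log2 -1.96 ± 0.46 SE, adjusted p = 0.00623), and Arg1, arginase, with 9.96 and 41.4 against 182, 107 and 72.9 (log2 -1.57 ± 0.41 SE, adjusted p = 0.0151). Without CL316243 replicate 1 none of these 3 was called (adjusted p = 0.152, 0.0868 and 0.307), and without replicate 2 neither Itgb2 nor Il1rn was (0.133 and 0.0600). Without pioglitazone replicate 1 Itgb2 and Arg1 were not called (0.175 and 0.0991).

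Few markers of other cell types and tissues that a perigonadal dissection can hold were called, though several summed signals did not overlap. No marker was called among 15 of B and plasma cells, 15 endothelial, 8 mesothelial, 22 skeletal muscle and 12 pancreas genes. Of 18 ovary and uterus markers 2 were called higher, Olfm1 and Mt2, and Mt2 is a metallothionein of many tissues. Of 23 T and NK cell markers Ccl5 was called, and of 5 erythroid markers Alas2, the haem synthesis enzyme of red cell precursors, with 265 and 207 in CL316243 against 630.5, 1340.2 and 1446 in pioglitazone (log2 -2.09, adjusted p = 0.0185). Of 15 neural and sympathetic markers Maoa, the monoamine oxidase that breaks down noradrenaline, was called, with 399 and 624 in CL316243 against 1684, 1522 and 1049.6 in pioglitazone (log2 -1.44 ± 0.43 SE, adjusted p = 0.0356). Alas2, Olfm1 and Maoa each missed the threshold without CL316243 replicate 1 (adjusted p = 0.104, 0.169 and 0.329) or replicate 2 (0.166, 0.130 and 0.0889). So did Alas2 without pioglitazone replicate 2 or 3 (0.0679 and 0.0793), and Olfm1 and Maoa without replicate 1 (0.0633 and 0.127) or 2 (0.0719 and 0.0948). Summed signals over whole lists, CL316243 arrays against pioglitazone arrays, were 8937 to 9239 against 3338 to 3800.1 for ovary and uterus, 3804 to 4366 against 1971 to 3248 for neutrophils and mast cells and 1801 to 1959 against 830.1 to 1150.3 for T and NK cells. They were 6679 to 8013 against 4966 to 6148 for B and plasma cells, 11291 to 18801 against 6379 to 8592 for erythroid cells and 2683 to 3009 against 1428 to 1996 for pancreas, all higher in CL316243. Endothelial markers (8464 to 8896 against 5840.2 to 7920) and skeletal muscle markers (3609 to 3857 against 2380.1 to 3208) were higher in sum too. Mesothelial markers (572.6 to 642.57 against 642.61 to 1037) and neural markers (3054 to 3578 against 3766 to 4952) were lower in sum. None of these 10 sums overlapped between the drugs, but a sum follows its brightest genes. The mean log2 signal of a list overlapped for erythroid, endothelial and neural markers, and not for the other lists here. The median difference had the opposite sign to the sum for neural markers (log2 0.25, 9 of 15 above 0) and erythroid markers (-0.22, 2 of 5 above 0). Among all probe sets, 52.8% had no overlap either. Of the T and NK cell markers, 8 of 23 lay below 23 in both drug groups. The part of these cell types in the acute phase, MHC class II and other results was not tested.

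Part of the protein folding genes were lower in CL316243. Of 30 measured unfolded protein and heat shock genes, which are not all of the endoplasmic reticulum, 7 were called lower, 1 higher and 22 not, with a median of -0.47. Ddit3 was called higher (log2 1.05, adjusted p = 0.0474). Hspa5, the main chaperone of the endoplasmic reticulum, had 789 and 699.6 in CL316243, against 2764, 1693 and 2286 in pioglitazone and 2494, 2019, 2089 and 1426 in untreated fat (log2 -1.54 ± 0.30 SE, adjusted p = 0.000997 between the drugs). Dnajb9, its cochaperone, had 97.1 and 78.6, against 415, 296 and 525 in pioglitazone (log2 -1.94 ± 0.37 SE, adjusted p = 0.000885), and a second probe set was at log2 -2.88 (adjusted p = 0.00105). Both genes were also called below untreated fat with CL316243 (log2 -1.38, adjusted p = 0.00644, and -1.63, 0.00905), and 6 of the 30 were, against none with pioglitazone. Hspd1, the mitochondrial chaperonin, had 1340.3 and 1013 in CL316243, against 3373, 2698 and 4392 in pioglitazone (log2 -1.53 ± 0.37 SE, adjusted p = 0.00748), and Pdia3, a disulfide isomerase, 201 and 163 against 724, 466 and 446 (log2 -1.44 ± 0.41 SE, adjusted p = 0.0257). The count of 7 was 3 without CL316243 replicate 1 and 2 without replicate 2. Pdia3 missed the threshold without either, or without pioglitazone replicate 1 (adjusted p = 0.118, 0.204 and 0.124), and Hspd1 without replicate 2 (0.129).

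Cholesterol, lysosomal and matrix genes split in both directions. Apoe, apolipoprotein E, had 12942 and 11053 in CL316243, against 2378, 3553 and 2750.1 in pioglitazone (log2 2.06 ± 0.47 SE, adjusted p = 0.00540), and Apoc1, its neighbour, 1908 and 1663 against 474, 469 and 736 (log2 1.66 ± 0.26 SE, adjusted p = 0.000125). Apoe missed the threshold without CL316243 replicate 1 or 2 (adjusted p = 0.0882 and 0.0508). Of 24 cholesterol genes 4 were called higher and 2 lower, and 1 of the 4 is Lcn2, which is no cholesterol gene and entered that list by mistake. The higher calls were 1 and 2 and the lower calls 1 and 0 without CL316243 replicate 1 or 2. Ctsd, cathepsin D, had 8511 and 6985 against 124, 1788 and 1368, with pioglitazone replicate 1 far below the other arrays of its group (log2 3.43 ± 0.67 SE, adjusted p = 0.00112, and log2 2.28 without that array). Of 40 lysosomal genes 4 were called higher and 2 lower, Gusb and Asah1. The higher lysosomal calls were 1 and 2 without CL316243 replicate 1 or 2, when neither Gusb (adjusted p = 0.248 and 0.145) nor Asah1 (0.156 and 0.133) was called. Without pioglitazone replicate 1 both also missed the threshold (0.179 and 0.107), as did Gusb without replicate 2 (0.0576). Of 46 matrix genes 6 were higher, among them Col4a1, a basement membrane collagen, with 7809.9 and 7228 against 2181, 2126 and 2321 (log2 1.76 ± 0.36 SE, adjusted p = 0.00181), and Nid2, nidogen 2, with 162 and 205 against 42.7, 44.1 and 44.2 (log2 1.62 ± 0.33 SE, adjusted p = 0.00187). The 4 lower ones included Postn, periostin, with 609 and 725 against 2963, 1963 and 1988 (log2 -1.73 ± 0.33 SE, adjusted p = 0.000860), and Timp2, a protease inhibitor, at log2 -2.04 (adjusted p = 0.0119). Without CL316243 replicate 1 or 2 the matrix genes called higher were 2 and 2, those called lower 1 and 1, and Timp2 was not called (adjusted p = 0.118 and 0.0937), nor was Nid2 without replicate 2 (0.0593).

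Steroid and detoxifying enzymes gave single genes. Hsd11b1, which regenerates active glucocorticoid, had 671 and 949.5 in CL316243, against 213, 453 and 309 in pioglitazone and 1118, 1096, 777 and 365 in untreated fat (log2 1.30 ± 0.34 SE, adjusted p = 0.0140 between the drugs). It was called below untreated fat with pioglitazone (log2 -1.25, adjusted p = 0.0170), and CL316243 lay within the untreated range. Nnmt, nicotinamide methyltransferase, had 3456 and 3247 against 1343, 1523 and 1477 (log2 1.20 ± 0.30 SE, adjusted p = 0.0105) and was called above untreated fat in CL316243 (log2 1.32, adjusted p = 0.00940). Cyp4b1, a lung and fat cytochrome P450, was lower in CL316243, with 1301 and 1378 against 2428, 3717 and 3857 (log2 -1.27 ± 0.25 SE, adjusted p = 0.00122). Gstt1, a glutathione transferase, was higher, with 683 and 566 against 228, 215 and 289 (log2 1.28 ± 0.27 SE, adjusted p = 0.00262). Mt1 and Mt2, the metallothioneins, were at log2 1.31 and 1.53 (adjusted p = 0.0257 and 0.00355), and were at 0.59 and 0.91 with quantile normalization (0.335 and 0.0526). Without CL316243 replicate 1 Nnmt, Gstt1, Mt1 and Mt2 missed the threshold (adjusted p = 0.118, 0.0758, 0.179 and 0.0564), and without replicate 2 Hsd11b1, Nnmt and Mt1 did (0.209, 0.0828 and 0.139). Hsd11b1 also missed it without pioglitazone replicate 1 (0.0972), and Mt1 without pioglitazone replicate 1, 2 or 3 (0.0660, 0.0714 and 0.0565).

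Beside the lists, the 15 lowest genes held Aadac, arylacetamide deacetylase of the liver, with 3.39 and 27.3 in CL316243, against 299.8, 373 and 322 in pioglitazone and 48.1, 100.5, 7.64 and 7.97 in untreated fat (log2 -3.28 ± 0.46 SE, adjusted p = 1.99e-05 between the drugs). Here the pioglitazone arrays lay above untreated fat (log2 2.72, adjusted p = 2.55e-05). Cpe, carboxypeptidase E of prohormone processing, had 84.0 and 99.0, against 918, 697 and 667 in pioglitazone and 719.7, 683, 599.9 and 606 in untreated fat. Cpe was lower in CL316243 than in untreated fat (log2 -2.56, adjusted p = 0.000385), and a second Cpe probe set gave -2.01 (adjusted p = 0.00645). Scan day and chip lot differ there too and cannot be told apart from the drug. Psap, prosaposin, had 1 probe set lower and 1 higher in CL316243 (log2 -3.33, adjusted p = 0.000316, and log2 1.34, adjusted p = 0.00607), so no direction is given for that gene. The others were Apmap, Alb, Slc19a1, Nabp1, Fgf13 and the genes named above, at log2 -2.74, -2.54, -2.52, -2.49 and -2.39. Apmap and Alb, the liver protein albumin, missed the threshold without CL316243 replicate 2 (adjusted p = 0.0889 and 0.174), as did Alb without pioglitazone replicate 3 (0.0611).

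The 15 highest genes were of another kind. Slc39a1, a zinc importer, led with 11601 and 8962 in CL316243, against 236, 295 and 261 in pioglitazone (log2 5.16 ± 0.90 SE, adjusted p = 0.000453), while a dim second probe set of the gene had 18.3 and 26.2 against 21.9, 28.6 and 33.2 (log2 -0.17). In the 30 arrays of the 8 other groups, 57 probe sets (the Slc39a1 one included) varied with the leading Slc39a1 probe set within groups at a correlation above 0.8. Sdc4, Kdelr2, Gnb1 and Dhrs3 of the 15 highest belong to it, while Uhmk1, Wfdc21, Saa3, Snrpb and Ctsd do not. Of these 57, 35 were called higher in CL316243 and none lower, and they held 9 of the 15 highest genes and none of the 15 lowest. Their mean log2 signal was 10.5 in both CL316243 arrays, against 8.47 to 8.54 in the pioglitazone arrays, 8.38 to 9.49 in the untreated ob/ob arrays and 8.16 to 10.7 in the untreated Ay/+ arrays. Other probe sets of the same genes often did not follow: Myh9, nonmuscle myosin, was at log2 4.50 in the group and 0.50 outside it. Likewise Klf13 was at 4.09 and -0.06, Set at 3.74 and 0.13, and Ap2a2 at 3.94 and -0.09. Of 16 called probe sets of this group whose gene had another probe set outside it, 2 had one called in the same direction. For the other higher calls this was 15 of 73 and for the lower calls 66 of 200. All other probe sets had the same sign in 7 of 16, 50 of 73 and 135 of 200, and one was called the opposite way in 1, 3 and 5. Probe sets that belong to the group were left out as partners, so agreement inside it could not count.

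**Figure D4:**
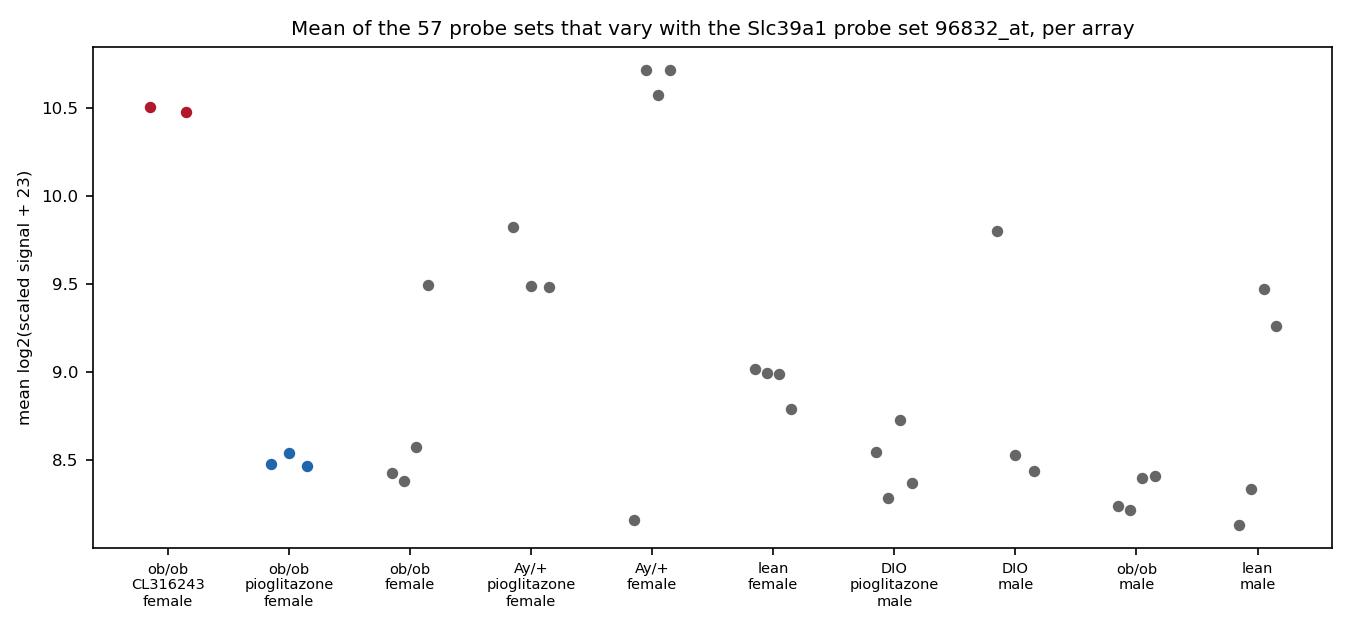
Mean log2 of scaled signal plus 23 (y axis) over the 57 probe sets that vary with the Slc39a1 probe set, 1 point per array, for the 10 groups of the study. Both CL316243 arrays lie at 10.5 and the 3 pioglitazone arrays at 8.47 to 8.54, and 3 of the 4 untreated Ay/+ arrays lie as high as CL316243.

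With the mean of this set as a covariate 157 probe sets were called, of which 122 were among the 943, all with the same sign. The covariate does not overlap between the drugs, so it also takes up what the drugs differ in, and its part in the result was not tested. Outside the set 326 probe sets were higher in CL316243. Under the covariate Ucp1 (log2 -4.63, adjusted p = 0.00206), Fabp3 (-3.26, 0.00249), Ephx2 (-3.03, 0.000881), Acadl (-1.69, 0.00584), Saa3 (3.81, 0.000926), Serpina3n (1.86, 0.00103) and H2-Aa (2.38, 0.00372) were called. Cidea (0.101), Etfdh (0.108), Sdha (0.427), Hspa5 (0.154) and Apoe (0.361) missed the threshold, and 3 of 25 fatty acid oxidation genes and 3 of 22 TCA cycle genes were called lower. Gm2a, Sod1, Abcg1 and Dhrs3 belong to the set. Erdr1, an erythroid differentiation regulator near the end of the X chromosome, is outside it, with 2599 and 3313 in CL316243 against 119, 124 and 81.4 in pioglitazone (log2 4.51 ± 0.58 SE, adjusted p = 5.49e-06), and its brighter probe set missed the threshold (log2 1.77, adjusted p = 0.259).

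Pioglitazone in the other models gives a view of the same genes on arrays that share none with the ob/ob groups. All comparisons come from 1 fit, however, so each probe set has the same estimate of spread in all of them. A probe set with a small estimate is more easily called in several comparisons, and a dim one in few. The part of this in the shares below was not tested. Pioglitazone against untreated gave 377 calls in Ay/+ females (3.03%, 264 higher and 113 lower) and 176 in diet-induced obese males (1.42%, 94 higher and 82 lower). Of the 582 probe sets lower in CL316243 than in pioglitazone, 102 (17.5%) were called higher with pioglitazone in Ay/+ females and none lower, beside 2.13% of all probe sets, and 54 (9.28%) were called higher in diet-induced obese males and none lower, beside 0.757%. Of the 361 higher in CL316243, 40 (11.1%) were called lower with pioglitazone in Ay/+ females and 1 higher, beside 0.91%, and 30 (8.31%) were called lower in diet-induced obese males and none higher, beside 0.66%. Seen from the other lists, these are 38.6% of the probe sets called higher in Ay/+ females and 57.4% in diet-induced obese males. Of all probe sets, 4.69% were lower in CL316243. For the probe sets called lower there the shares were 35.4% and 36.6%, and 2.91% of all probe sets were higher in CL316243.

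Of 68 probe sets raised by pioglitazone in both other models, 47 (69.1%) were lower in CL316243 than in pioglitazone in ob/ob fat. Among all probe sets 4.69% were. The 47 include Ucp1, Cidea, Fabp3, Pdk4, Acadl, Etfdh, Ephx2, Aqp7, Sdha and Cycs. Ucp1 rose with pioglitazone by log2 4.15 in Ay/+ females (adjusted p = 9.54e-06) and 2.17 in diet-induced obese males (0.0347), beside 5.09 in ob/ob females. Ephx2 rose by 1.88 and 3.13 (adjusted p = 0.000461 and 1.27e-07), beside 2.64. Of 28 probe sets lowered in both other models, 20 (71.4%) were higher in CL316243, beside 2.91% of all probe sets. The 20 include Saa3, Wfdc21, Serpina3n, S100a8, Ccl7, Ccr2, Nid2 and Irf8. Serpina3n fell by log2 2.65 in Ay/+ females and 2.95 in diet-induced obese males (adjusted p = 4.18e-10 and 4.18e-11), and by 1.69 in ob/ob females. Of the Slc39a1 group, none of the 12 probe sets named by the rule was called with pioglitazone in any of the 3 models. Without Ay/+ untreated replicate 1 the Ay/+ comparison had 880 calls, and without its pioglitazone replicate 3 it had 223. Without diet-induced obese untreated replicate 2 the comparison in those males had 111.

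**Figure D5:**
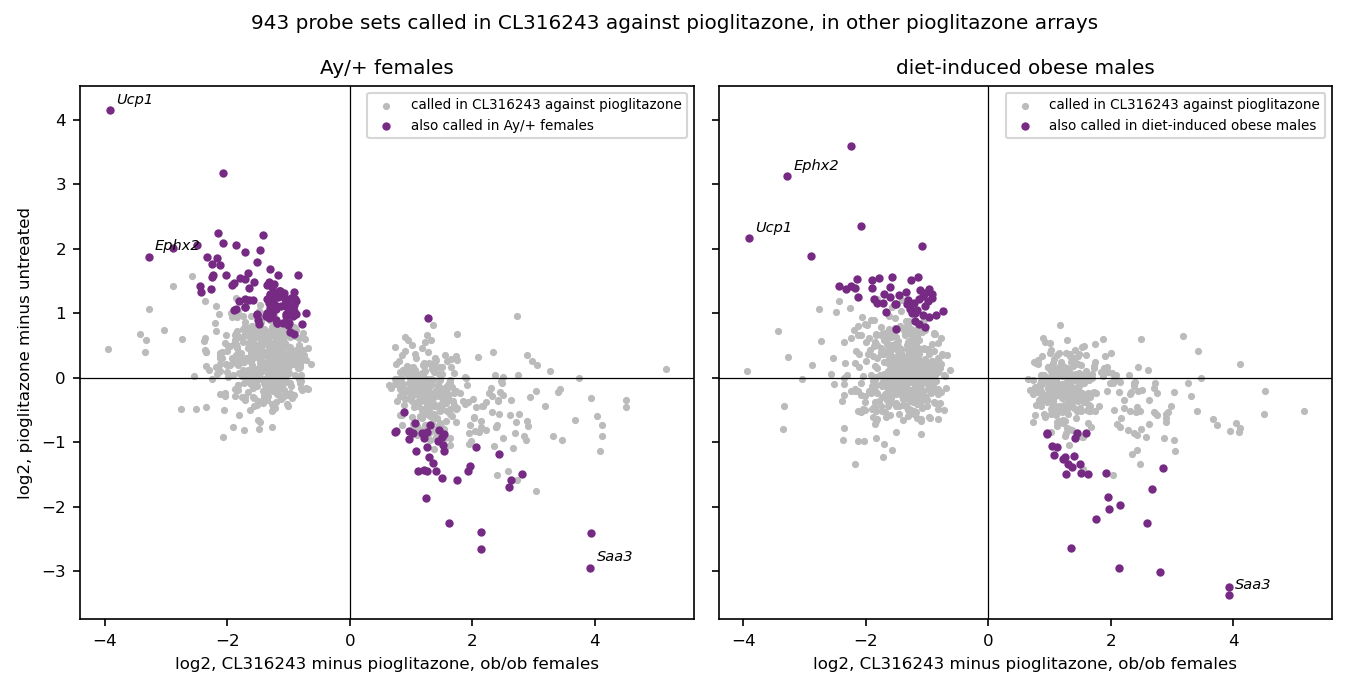
The 943 probe sets called between the drugs, with log2 CL316243 minus pioglitazone in ob/ob females on the x axis and log2 pioglitazone minus untreated in Ay/+ females (left) or diet-induced obese males (right) on the y axis, where dark points were also called in that model. Dark points lie in the upper left and lower right, with 1 exception in the upper right of the Ay/+ panel.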

How the data were processed

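Perigonadal fat was measured on 35 mouse MG-U74Av2 oligonucleotide arrays, 1 sample each. The deposited values are MAS5 signal intensity per probe set on a linear scale, per the labels and the submitters' processing notes, and the MAS5 version is not given in the sources used here. Deposited trimmed means differed between arrays, so each array was rescaled to a 2% trimmed mean of 250. The scanner settings deposited for each array gave scan day and chip lot, and the wash protocol except for CL316243 replicate 1. Leaving out 66 control probe sets of 12488, 10833 of the 12422 tested had 1 symbol, 396 several and 1193 none in the platform annotation. Log2 of the signal plus 23 (the 25th percentile) was fitted with limma 3.58.1 (R 4.3.3) as 10 group means over 35 arrays with a trended prior, and p-values were adjusted by Benjamini-Hochberg over all 12422. Fit quality was tested on simulated data with 200 changed genes for CL316243 against pioglitazone: 17.4% of changes of log2 1 and 85.8% of log2 2 were recovered, and 5.34% of calls were false. The simulated noise was independent between probe sets and arrays. It held no effect of scan day or chip lot and no probe sets that vary together. These rates therefore do not give the false share of the real calls between the drugs.

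Groups follow the labels. The members and lists were chosen with earlier results of these data known. Named genes were the 15 highest and 15 lowest called genes, called members of the lists, and a list of key genes, of which Adrb3, Adrb1 and Cfd had no matched probe set. A gene in a list was measured by its brightest probe set. Alternatives covered scaling, pseudocount, filter, trend, samples in the fit, array weights, scan day, batch, the replicate number as a block and each array left out. The set that varies with Slc39a1 was added as a covariate after seeing the data. Replicate numbers did not pair the samples: deviations correlated at -0.0017 and 0.0218 between the drugs. Promoters come from RefSeq.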

Additional observations from a re-analysis of the deposited data

Results flagged for a closer look

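Among the key genes, 54 groups of 4 arrays were tested for a single array far from the others of its group, and 9 were marked, where chance marks about 1 in 20 groups. In untreated ob/ob replicate 4, Pparg was at 237.7 (others 537.2 to 612), Lipe at 1936 (3024 to 3170) and Cd68 at 1001 (3603 to 4319), all below the other arrays. In the same array Dio2 was at 66.02 (39.58 to 43.21), Lpl at 5763 (2668 to 3012) and Car3 at 11140.0 (3574 to 4111), all above them. Mmp12 was low in untreated replicate 2, at 4033 (4720.0 to 4870.0). In lean females Cidea was low in replicate 1, at 951.8 (2264 to 2563), and Car3 was high in replicate 4, at 15660.0 (7229 to 7814). Untreated replicate 4 and lean replicate 4 are of the later arrays, unlike the others of their groups. The drug groups, with 2 and 3 arrays, were too small for this test.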

How the results depend on the processing

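Counts of calls moved by over 1.5 times as follows. CL316243 against pioglitazone (943) had 157 with the Slc39a1 set as a covariate, 3087 with array weights, 2543 in a fit of the compared groups only, 1736 with the earlier arrays only, 390 with scan day as a random block, 1967 without 4 doubted arrays and 276 to 654 with 1 array left out. CL316243 against untreated (464) had 10 with the covariate, 3186 with array weights, 20 with the compared groups only, 1716 with the earlier arrays only, 32 with scan day, 1981 without the doubted arrays and 4 to 1261 with 1 array left out. With quantile normalization it had 314, of which 54.5% were higher, against 41.6%. Pioglitazone against untreated ob/ob females (132) had 699 with array weights, 14 with the compared groups only, 56 with scan day and 44 to 142 with 1 array left out. In Ay/+ females (377) it had 641, 90, 1221 and 1093 with array weights, the compared groups only, the earlier arrays only and without the doubted arrays, and 223 to 880 with 1 array left out. In diet-induced obese males (176) it had 570, 73, 59 and 352 in the same order, and 111 to 160.0 with 1 array left out. The cause of these shifts was not tested. With the replicate number as a block the 5 counts were 870.0, 479, 95, 312 and 167, and no paired reading is made, since the numbers do not pair the samples.

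Of 107 called probe sets among the 123 named, 71 were called with scan day as a block, 57 and 55 without CL316243 replicate 1 or 2, 36 with the covariate and 97 with quantile normalization. The sign turned with the covariate for Gm2a (-0.90), Sod1 (-0.61), Ppargc1a (-0.29), Dio2 (-0.49), Fabp4 (-0.89) and Cd68 (0.27), with quantile normalization for Adipoq (-0.24), Lipe (-0.36) and Mmp12 (-0.040), and with 1 array left out for Dio2 (-0.15 to 0.35, below 0 without CL316243 replicate 1 and, at -0.10, without pioglitazone replicate 2) and Lipe (-0.032 to 0.34, below 0 without pioglitazone replicate 1). Signals near the pseudocount give compressed differences.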
